A study of Sus scrofa domesticus with 16 samples.

Results

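Smooth muscle contractile genes were followed in the adrenal glands of 16 pigs through the probe sets whose annotated symbol was TAGLN, TPM2, ACTA2, CNN1, DES, MYLK, MYH11, ACTG2, PLN or LMOD1. Of these 10 genes, 8 had at least 1 probe set in the annotation used, among 6765 genes with a symbol of their own. Together they had 14 of the 23999 probe sets on the array that were no controls. MYH11 and LMOD1 had none and were not analysed here. A filter on dim probe sets kept 10 of the 14, for 7 genes, among 14399 probe sets tested in all. The probe sets not kept were the only one of MYLK and 1 further probe set each of TPM2, DES and PLN.

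Domestic pigs (Sus scrofa domesticus) that did not know each other had been mixed, and total RNA of the adrenal gland was measured on 1 Affymetrix Porcine Genome Array per animal. The low stress group held 8 animals from a mixing treatment of low aggressiveness, and the high stress group held 8 from a mixing treatment of high aggressiveness. The submitters selected these animals for a difference in aggressive behaviour and in plasma cortisol, so there was no unmixed control group. The comparison asks how adrenal gene expression differed between animals chosen in this way.

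Smooth muscle cells line blood vessels and, in the adrenal gland, are found in the arterioles of the capsule and the walls of the veins that drain the medulla. They shorten when calcium, through calmodulin, activates myosin light chain kinase, and phosphorylated myosin then pulls on actin filaments carrying tropomyosin and calponin. Transcription of many of these genes is driven by serum response factor with its coactivator myocardin, so they are known to be expressed together in contractile smooth muscle. The deposited values are signals of whole glands, in which fewer cells of a type and less RNA per cell cannot be told apart.

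The labels name no batch, but the arrays split into 2 sets of 8 by the signal of dap, a bacterial control transcript spiked into each sample. Both sets held 4 animals of each stress group. The animal numbers in the labels begin with 3, 4, 5 or 8, and each set held 1 low stress and 1 high stress animal for each of these digits. The mean dap signal was 614 in the low-spike and 3720 in the high-spike set. The ratio of 3' to 5' signal of actin averaged 14.0 and 6.87 in the same order. The low-spike set comprised low stress replicates 2, 4, 5 and 7 and high stress replicates 1, 4, 6 and 8. All values below are log2 of the deposited signal. The arrays had median signals of 116 to 148. All 9 annotated genes of a list of steroidogenic cortex markers and 6 of 7 chromaffin cell markers passed the filter on dim probe sets. The number of arrays limits the precision.

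TAGLN encodes transgelin, also called SM22, a protein that binds and cross-links actin filaments. Its probe set (NCBI gene 397021) lay at a log2 signal of 9.66 in the lowest, 10.38 in the median and 11.19 in the highest low stress animal. In the high stress group the lowest animal was at 10.40, the median at 10.93 and the highest at 11.42. The low stress mean was exceeded by 8 of 8 high stress animals, but only 1 lay above every low stress animal, so the groups overlapped. The means were 10.39 ± 0.51 in low stress and 10.89 ± 0.30 in high stress (SD, n = 8 each), a 1.41-fold difference (95% confidence interval 1.06 to 1.89). The log2 difference of 0.50 (SE 0.20) did not pass limma's test over all probe sets (adjusted p = 0.999). An exact two-sided permutation test of this single value over all 12870 splits of the animals gave p = 0.0329. TAGLN and TPM2 were picked with their earlier results known, so an unadjusted p is only a description.

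TPM2 encodes beta-tropomyosin, which lies along the actin filament and regulates access of myosin to it. Its brightest probe set (NCBI gene 396693; called TPM2 (a), with TPM2 (b) and (c) after it in order of mean signal) was at 9.78 in the lowest, 10.63 in the median and 11.69 in the highest low stress animal. The corresponding high stress values were 10.41, 11.11 and 11.99. Here 7 of 8 high stress animals exceeded the mean of the low stress group, and the ranges of the groups again overlapped widely. The means were 10.58 ± 0.60 and 11.15 ± 0.51 (SD, n = 8 each), a 1.48-fold difference with a 95% confidence interval of 1.02 to 2.16. The log2 difference was 0.57 (SE 0.26, limma adjusted p = 0.999; exact two-sided permutation p = 0.0632). TPM2 (b) gave 0.50 (SE 0.27) and TPM2 (c) gave 0.32 (SE 0.16), without passing either.

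The remaining genes showed smaller or less certain differences between the stress groups. ACTA2 (NCBI gene 733615) encodes smooth muscle alpha-actin, the main actin of vascular smooth muscle. Its low stress values ran from 10.75 over a median of 12.22 to 13.65, and its high stress values from 11.96 over 12.44 to 13.52. The low stress range enclosed the whole high stress range. The log2 difference was 0.33 (SE 0.34; 95% confidence interval -0.39 to 1.05), and it ran from 0.12 without low stress replicate 3 to 0.54 without low stress replicate 7.

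ACTG2 (NCBI gene 100520667) encodes the gamma-actin of visceral smooth muscle, and its probe sets did not give 1 answer. ACTG2 (a), the brighter one, varied little, from 9.99 over a median of 10.35 to 10.74 in low stress and from 10.04 over 10.32 to 10.65 in high stress. Its log2 difference was -0.02 (SE 0.12). ACTG2 (b) ran from 6.04 over 6.84 to 8.63 in low stress and from 6.05 over 7.82 to 8.52 in high stress, a difference of 0.46 (SE 0.40). Across the 16 animals these probe sets correlated at r = 0.129 (Spearman's rho 0.144; permutation p adjusted over 45 pairs 0.706 and 0.711), so over all animals they did not rank the glands alike. Within the low-spike set r was 0.634 and within the high-spike set -0.019 (adjusted exact permutation p = 0.543 and 0.964).

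CNN1 (NCBI gene 396911) encodes calponin 1, an actin-binding inhibitor of the myosin ATPase. It lay between 5.96 and 7.49 in low stress, with a median of 7.13, and between 6.66 and 7.39 in high stress, with a median of 7.07. The log2 difference was 0.04 (SE 0.19). DES (NCBI gene 396725) encodes desmin, the intermediate filament of muscle cells. It ran from 7.36 over 8.17 to 8.58 in low stress and from 7.92 over 8.24 to 8.43 in high stress, a difference of 0.08 (SE 0.15). For both genes the lowest gland of all belonged to the low stress group, replicate 8 for CNN1 and replicate 3 for DES.

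PLN (NCBI gene 397421) encodes phospholamban, which holds back the calcium pump of the sarcoplasmic reticulum. It lay between 5.22 and 6.96 in low stress, with a median of 6.37, and between 4.70 and 6.77 in high stress, with a median of 6.34. Its log2 difference was -0.14 (SE 0.27), and the filter value of 6.15 fell inside both ranges. MYLK (NCBI gene 396848), the gene of myosin light chain kinase, averaged 3.42 and ranged from 1.90 to 5.79, below the filter value in every animal. Of the further probe sets not kept, that of TPM2 averaged 4.99 and that of DES 4.62, and that of PLN ranged from 0.80 to 5.98. These probe sets were therefore not compared between the groups.

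**Figure D1:**
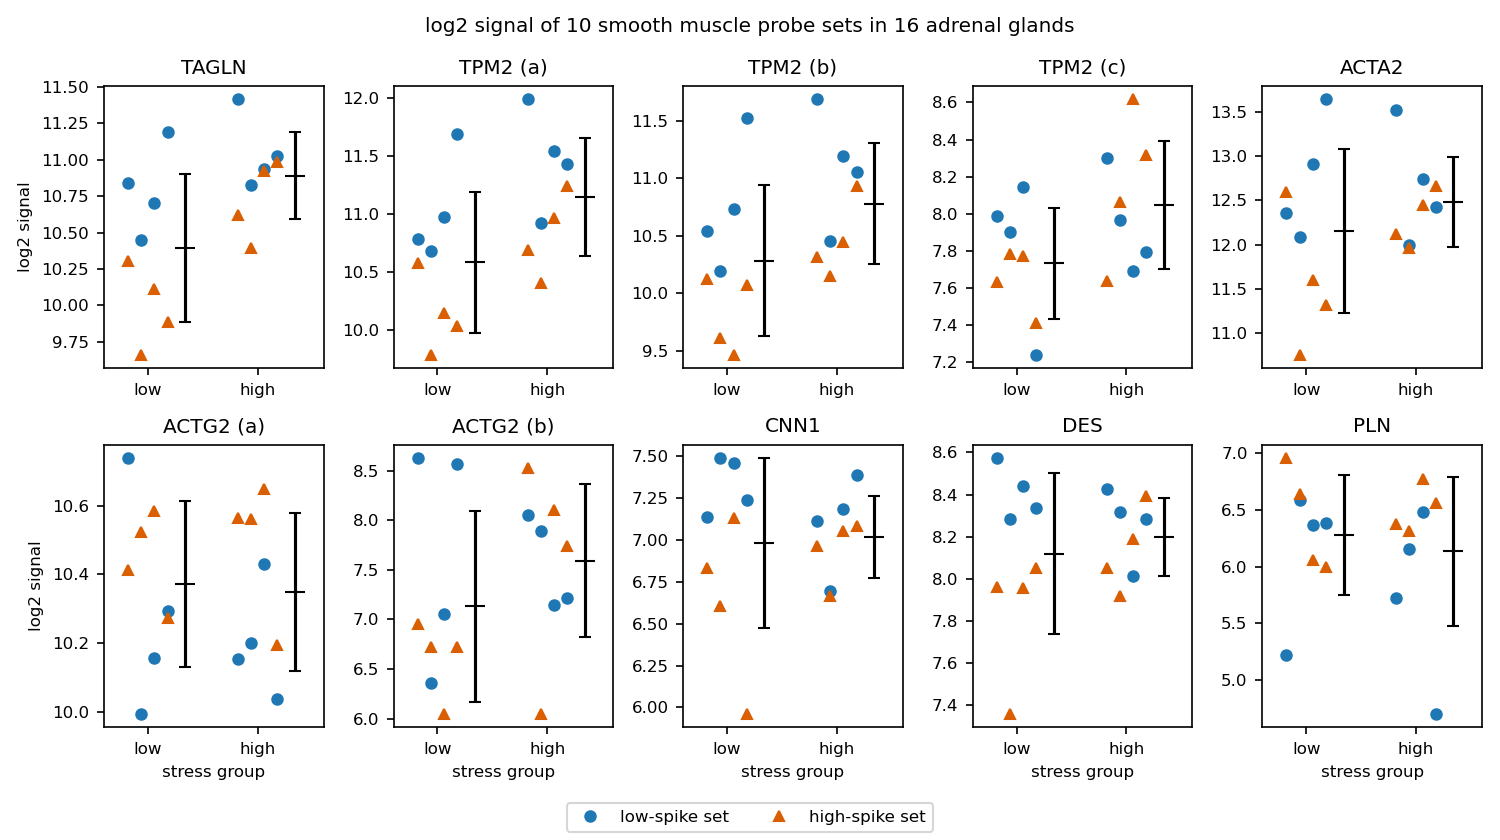
Log2 signal of the 10 tested probe sets in each of 16 adrenal glands, by stress group; circles are arrays of the low-spike set, triangles arrays of the high-spike set, and bars show the group mean with its SD (n = 8). For TAGLN the triangles of the low stress group, at 9.66 to 10.31, lie below all triangles of the high stress group, at 10.40 to 10.98.

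None of the 10 probe sets passed the comparison of high with low stress at an adjusted p under 0.05 in limma, where 0% of all probe sets tested passed. At an unadjusted p under 0.05, 2 of 10 did, TAGLN and TPM2 (a), against 3.19% of all probe sets tested. Both genes were picked with their earlier results known, so this count is only a description. No probe set of ACTA2, ACTG2, CNN1, DES or PLN had such a p. The log2 difference was above 0 for 8 of 10, against 41.6% of all, whose median was -0.03. The 10 probe sets are not independent, since 3 are of TPM2 and 2 of ACTG2. That share over all probe sets depended on the scaling, being 49.6% after quantile normalization and 60.8% after centring each array on its median. TAGLN then gave 0.50 and 0.57, and TPM2 (a) 0.56 and 0.64.

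**Figure D2:**
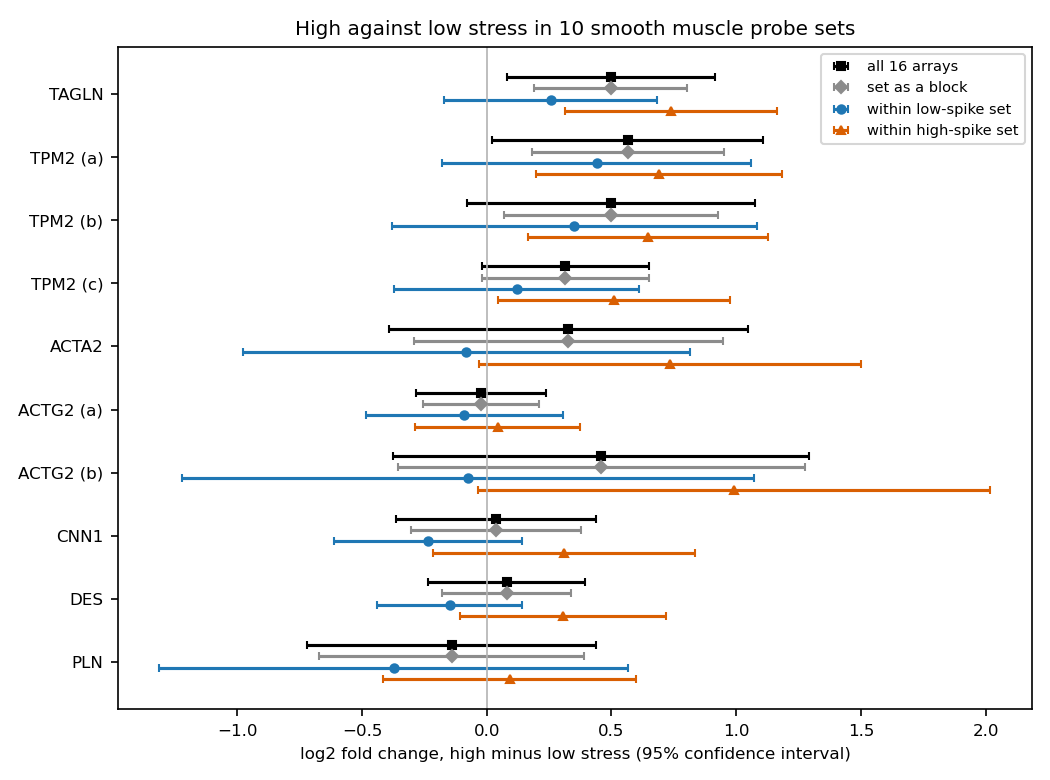
Log2 difference of high minus low stress with its 95% confidence interval for the 10 tested probe sets, from the fit over all 16 arrays, the fit with the spike-in set as a block, and the fits within each set. Over all arrays the intervals of TAGLN (0.08 to 0.92) and TPM2 (a) (0.02 to 1.11) lie above 0, and the other intervals include 0.

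The spike-in sets took up a large share of the spread of some of these genes and little of others. With stress in the fit, TAGLN was lower in the high-spike set by a log2 difference of -0.56 (SE 0.15, limma adjusted p = 0.00590), and TPM2 (a) by -0.77 (SE 0.18, adjusted p = 0.00341). TPM2 (b) had -0.79 (adjusted p = 0.00590). ACTA2 had -0.78 (adjusted p = 0.0433), CNN1 -0.43 (adjusted p = 0.0435) and DES -0.35 (adjusted p = 0.0315). TPM2 (c) had 0.03 (adjusted p = 0.909) and PLN 0.51 (adjusted p = 0.119). The probe sets of ACTG2 had opposite signs, with 0.22 for (a) and -0.51 for (b) (adjusted p = 0.120 and 0.310). Thus 6 of 10 probe sets were called lower in the high-spike set and none was called higher. Of all probe sets tested, 16.3% were called lower and 40.1% were called in either direction. The calls of TAGLN and TPM2 (a) held in all 20 alternatives run. That of ACTA2 was lost in 12 of 20, among them without low stress replicate 2, 3, 5, 6, 7 or 8 or high stress replicate 1, 2, 3 or 6. That of CNN1 was lost in 12 of 19, among them without low stress replicate 1, 2, 3, 4, 5, 7 or 8 or high stress replicate 1, 3, 6 or 8. That of DES was lost in 6 of 20, among them without low stress replicate 2, 3 or 5 or high stress replicate 1 or 3. With low stress replicate 3 or 5, or high stress replicate 1 or 3, left out, only 3 of the 10 passed.

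Spike-in set accounted for 36.9% of the variance of TAGLN over the 16 glands, stress group for 28.8% and the remainder for 34.4%. For TPM2 (a) these shares were 42.1%, 22.7% and 35.1%. For ACTA2 they were 29.3%, 5.15% and 65.6%, so most of its variation lay among glands of the same group and set. The share of the set was 37.8% for DES, 32.7% for CNN1, 24.8% for ACTG2 (a) and 20.2% for PLN, but 9.04% for ACTG2 (b) and 0.153% for TPM2 (c). The highest gland exceeded the lowest 3.39-fold for TAGLN, 4.62-fold for TPM2 (a) and 7.49-fold for ACTA2. Over the 16 arrays the SD of ACTA2 was at percentile 95.8 of all probe sets tested and that of ACTG2 (b) at 97.9, while ACTG2 (a) was at 23.3.

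Taking the set as a block narrowed the errors of TAGLN and TPM2 (a). It could not change the differences, since each set held 4 animals of each stress group. TAGLN kept its log2 difference of 0.50 with an SE of 0.15 (95% confidence interval 0.19 to 0.80), but did not pass (adjusted p = 0.682), nor did TPM2 (a) with an SE of 0.18 (adjusted p = 0.682). An exact permutation test that exchanged labels within the sets alone, over 4900 splits, gave p = 0.00735 for TAGLN and 0.0167 for TPM2 (a). With the block none of the 10 passed at an adjusted p under 0.05 in limma, against 0.00694% of all probe sets tested, and 3 of 10 had an unadjusted p under 0.05, against 6.38%. The third of these was TPM2 (b), so all were again probe sets of TAGLN or TPM2, the genes picked beforehand.

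The animals can also be set side by side by first digit within a set, which gives 8 cells of 1 low stress and 1 high stress animal. What the digit marks is unknown here. TAGLN was higher in the high stress animal in 7 of 8 cells, by 0.23 to 1.1, and lower in the cell of low stress replicate 7 and high stress replicate 8 (-0.17). TPM2 (a) was also higher in 7 of 8, by 0.11 to 1.21, with -0.26 in the same cell. With these cells as a block in limma, TAGLN had an SE of 0.13 (adjusted p = 0.462) and TPM2 (a) an SE of 0.16 (adjusted p = 0.462), so neither passed. ACTA2 was higher in 4 of 8 cells.

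Within the high-spike set TAGLN separated the groups. Its low stress values there were 10.31, 9.66, 10.12 and 9.88 for replicates 1, 3, 6 and 8, and its high stress values were 10.62, 10.40, 10.92 and 10.98 for replicates 2, 3, 5 and 7. The groups did not overlap, and the difference was 0.74 (95% confidence interval 0.32 to 1.16, limma adjusted p = 0.9999). The exact permutation p was 0.0286, the smallest that 70 splits allow. TPM2 (b) reached the same exact permutation p there. How many of all probe sets tested separated the groups in this way was not counted. Since TAGLN was also picked with its earlier results known, the separation is only a description. In the low-spike set the low stress values were 10.84, 10.45, 10.70 and 11.19 for replicates 2, 4, 5 and 7, and the high stress values 11.42, 10.83, 10.94 and 11.02 for replicates 1, 4, 6 and 8. These groups overlapped, with a difference of 0.26 (95% confidence interval -0.17 to 0.68; exact permutation p = 0.286).

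The within-set values of the other genes are set side by side here. ACTA2 had -0.08 in the low-spike and 0.74 in the high-spike set, ACTG2 (b) -0.08 and 0.99, and TPM2 (a) 0.44 and 0.69. TPM2 (c) had 0.12 and 0.51, CNN1 -0.24 and 0.31, DES -0.15 and 0.31, and PLN -0.37 and 0.09. In the high-spike set all 10 probe sets had a difference above 0, against 43.7% of all probe sets tested, and in the low-spike set 4 of 10 did, against 44.4%. At an unadjusted p under 0.05, 4 of 10 passed limma within the high-spike set, against 2.83% of all, and 0 of 10 within the low-spike set, against 7.38%. The 4 were TAGLN and TPM2 (a), (b) and (c), and no probe set of the other genes was among them. TAGLN and TPM2 were picked with their earlier results known, so this count is only a description. None passed after adjustment in either set.

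The difference between the sets was tested as an interaction. For TAGLN it was 0.48 (SE 0.27, 95% confidence interval -0.10 to 1.06; limma adjusted p = 0.9996) and for TPM2 (a) it was 0.25 (SE 0.37). Without single animals these values ran from 0.35 to 0.61 and from 0.032 (without low stress replicate 7) to 0.42 (without high stress replicate 1). None of the 10 probe sets passed, against 0% of all probe sets tested, and none had an unadjusted p under 0.05, against 2.92%. All 10 interactions were above 0, as were 51.3% of all. A larger stress difference in the high-spike set was therefore not shown for any of these genes.

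TAGLN and TPM2 followed each other closely from gland to gland. Their correlation over 16 animals was r = 0.959 for TPM2 (a) (Spearman's rho 0.968; permutation p = 1e-05 for each, the smallest that 100000 permutations give; 7.5e-05 and 0.00015 adjusted over 45 pairs). It was 0.942 without low stress replicates 3 and 8, the animals farthest from the TAGLN median. In the low-spike set r was 0.917 (exact permutation p = 0.000744, adjusted 0.0112). In the high-spike set it was 0.979 (exact permutation p = 0.000124, adjusted 0.00558). High stress replicate 1 ranked first and low stress replicate 7 second for both genes. Low stress replicates 3, 8 and 6 held the lowest ranks for both.

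ACTA2 followed the pair. With TAGLN it correlated at r = 0.880 (rho 0.8; adjusted permutation p = 7.5e-05 and 0.0021), and at 0.767 without the same pair of animals. Within the low-spike set r was 0.756 (exact permutation p = 0.0285, adjusted 0.214) and within the high-spike set 0.887 (exact permutation p = 0.0037, adjusted 0.0404). Low stress replicate 7 was highest for ACTA2 at 13.65 and high stress replicate 1 next at 13.52. Low stress replicate 3 was lowest at 10.75.

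**Figure D3:**
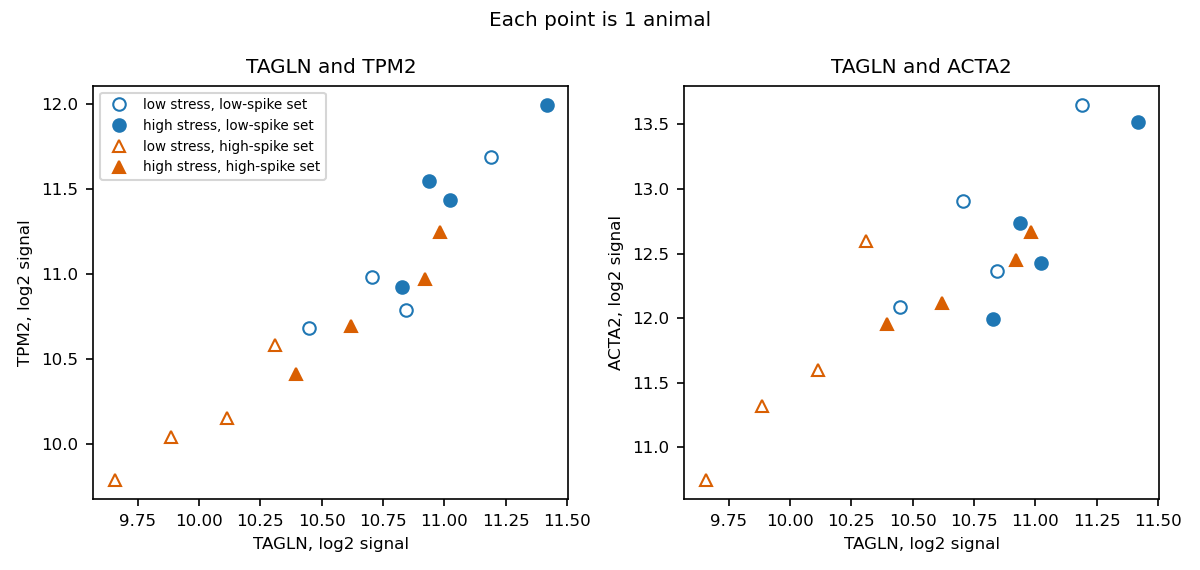
Log2 signal of TPM2 (a) and of ACTA2 against that of TAGLN in each of 16 glands, by stress group and spike-in set. Both genes climb with TAGLN (r = 0.959 and 0.880), from low stress replicate 3 at the lower left to high stress replicate 1 and low stress replicate 7 at the upper right.

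DES and CNN1 were less closely tied to TAGLN. DES correlated with it at r = 0.764 (rho 0.668; adjusted permutation p = 0.00238 and 0.0292), but at 0.056 within the low-spike set (exact permutation p = 0.897, adjusted 0.971) and at 0.821 within the high-spike set (exact permutation p = 0.00449, adjusted 0.0404). The relation over all animals thus did not hold within the low-spike set. CNN1 had r = 0.584 (rho 0.521; adjusted permutation p = 0.053 and 0.0905), which dropped to 0.220 without low stress replicates 3 and 8. With the mean of each spike-in set taken off it was 0.364. The values of CNN1 within the low-spike and high-spike sets were -0.294 and 0.638. PLN did not follow TAGLN (r = -0.295, rho -0.224; adjusted permutation p = 0.429 and 0.553).

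Probe sets of 1 gene could differ as much as different genes. TPM2 (a) and (b) correlated at r = 0.963 (rho 0.976; adjusted permutation p = 7.5e-05 and 0.00015), but TPM2 (a) and (c) at 0.195 (rho 0.271; adjusted permutation p = 0.624 and 0.469). With TAGLN, TPM2 (b) had r = 0.901 (rho 0.956) and TPM2 (c) 0.334 (rho 0.332). The values of TPM2 (c) differed between the sets. With TPM2 (a) it had r = -0.192 in the low-spike and 0.669 in the high-spike set (adjusted exact permutation p = 0.971 and 0.229). With TAGLN it had -0.089 and 0.726 (adjusted exact permutation p = 0.971 and 0.177). ACTG2 (b) had r = 0.666 (rho 0.7; adjusted permutation p = 0.022 and 0.0208), with 0.625 and 0.657 within the sets, and ACTG2 (a) had -0.278 (rho -0.306; adjusted permutation p = 0.451 and 0.4). Which transcripts each probe set detects was not tested. Of all 45 pairs, 11 passed at an adjusted p under 0.05, all with a positive r, and 10 of these were among the 41 pairs from different genes. The median r of those 41 was 0.298 over all animals, -0.0236 among arrays of the low-spike set and 0.458 among those of the high-spike set. Correlations over all animals take in the difference between the sets, for which 40.1% of all probe sets tested were called. The share of pairs of other genes that would pass was not computed, so the count of 11 is only a description of these probe sets.

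**Figure D4:**
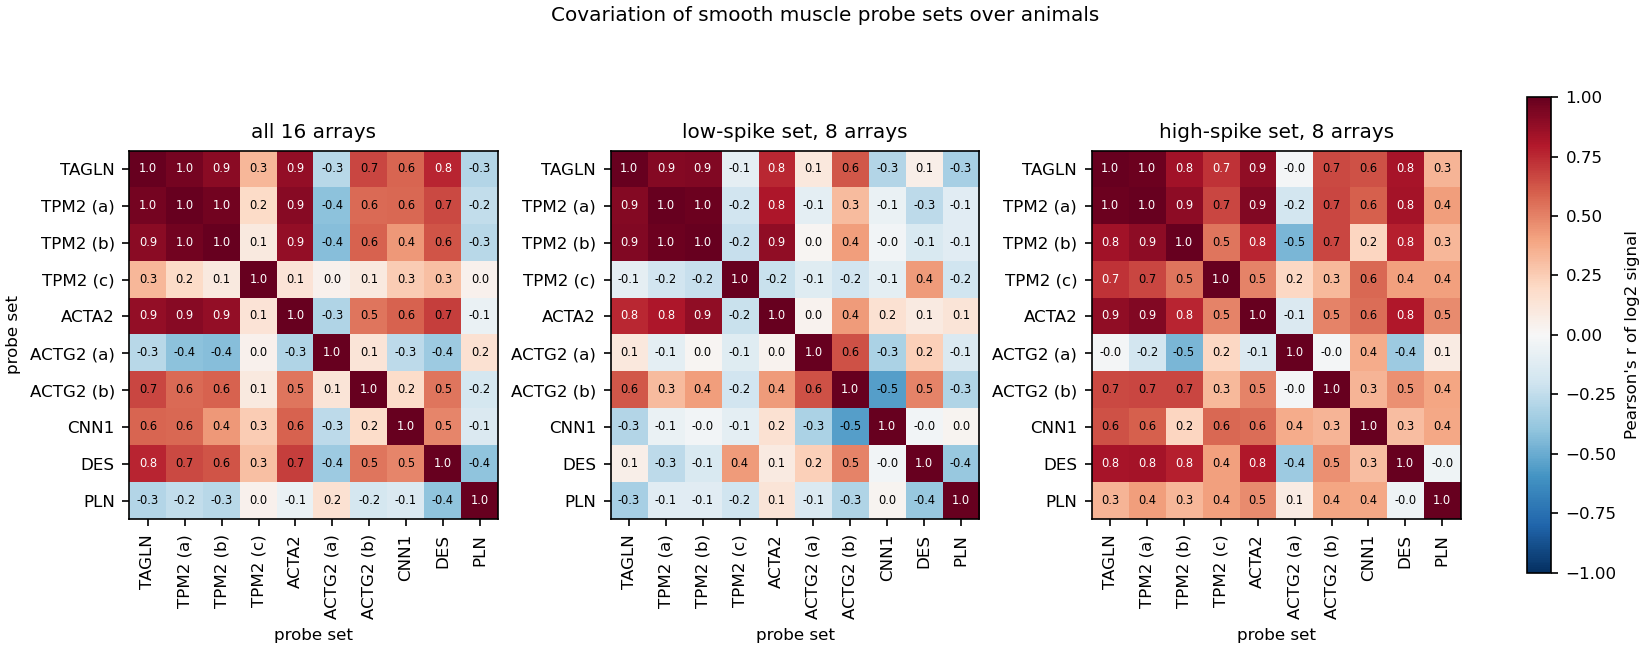
Pearson's r of log2 signal between the 10 tested probe sets, over 16 animals and within each spike-in set of 8. TAGLN, TPM2 (a), TPM2 (b) and ACTA2 form a block of high r in each panel. Over all animals TPM2 (c), ACTG2 (a) and PLN stand apart from it, and DES joins it in the high-spike set (r with TAGLN 0.821) but not in the low-spike set (0.056).

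The likeness of all other named genes to TAGLN was ranked over 5454 genes after the mean of each spike-in set was taken off. These values are descriptions across the same 16 arrays, which share their scaling and RNA. TPM2 ranked first with r = 0.934 and ACTA2 ranked 4 with 0.825, where the median gene had 0.021 and 90% of genes lay between -0.43 and 0.48. Only 4 genes exceeded 0.8. The others were ZFP36, a zinc finger protein that promotes decay of AU-rich mRNAs, with 0.850, and GMPPA, a regulator of GDP-mannose synthesis, with 0.832. The plain correlation of ZFP36 with TAGLN was 0.371. Next came the early response gene IER3 (0.774), the proline synthesis enzyme PYCR3 (0.770), the peroxiredoxin PRDX4 (0.762) and YIF1B (0.756).

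For TPM2 the most similar genes were TAGLN, ACTA2 (0.868), the progestin and adipoQ receptor PAQR8 (0.832), the dipeptidase CNDP2 (0.799) and the nucleotide-binding protein HINT1 (0.799). YIF1B (0.797), VWA5A (0.781) and PRDX4 (0.779) followed. YIF1B and PRDX4 were among the 8 most similar genes for both. DES ranked 67 for likeness to TAGLN (0.62) and CNN1 ranked 659 (0.36), while ACTG2 (a) had 0.04 and PLN -0.03. CNN1, ACTG2 (a) and PLN thus lay within the range of 90% of genes. ACTG2 (b), which was not ranked because the brighter probe set stood for the gene, had 0.64 and lay above that range. TPM2 (b) and (c), not ranked for the same reason, had 0.84 and 0.45, and TPM2 (c) lay within that range.

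**Figure D5:**
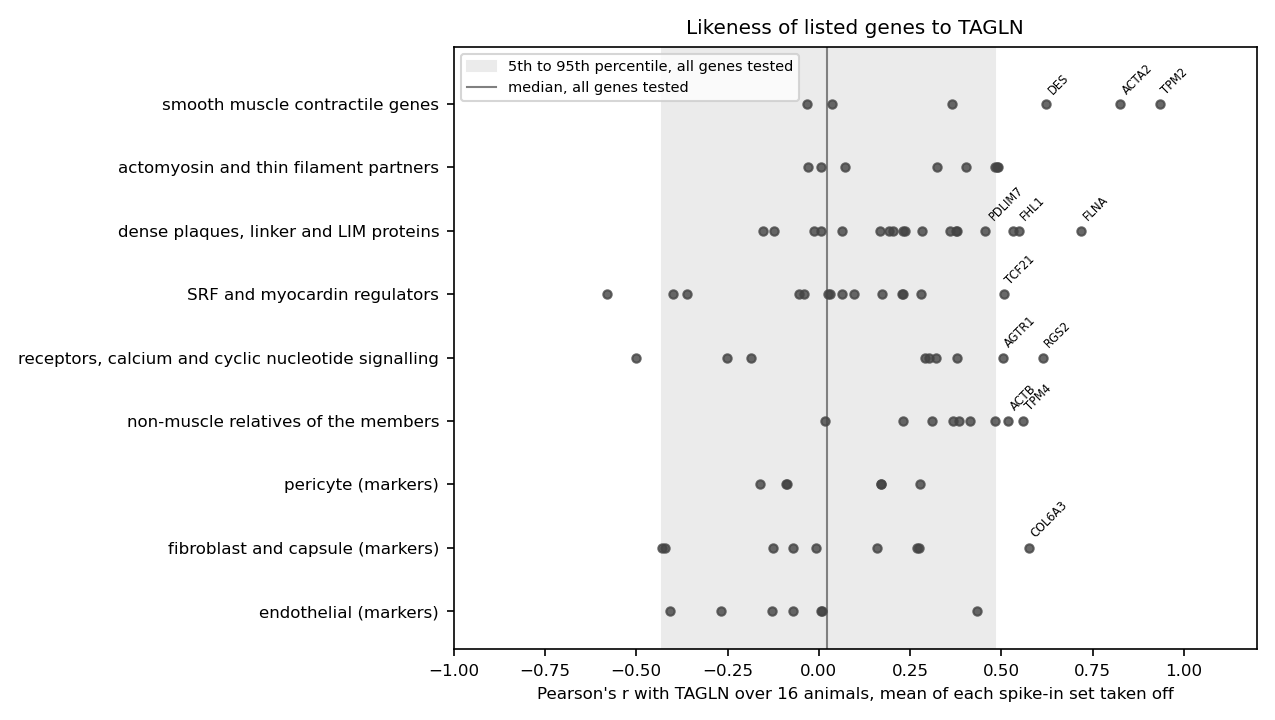
Pearson's r with TAGLN over 16 animals, after the mean of each spike-in set was taken off, for each measured gene of the lists named on the left; the shaded band spans -0.43 to 0.48, which holds 90% of genes, and the line marks the median. TPM2, ACTA2 and FLNA lie farthest to the right, at 0.934, 0.825 and 0.72.

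Further genes of contraction were read from lists of known function, with 1 probe set per gene. No gene of these lists passed the stress comparison in limma, as none of all 5455 genes did, and 164 of those had an unadjusted p under 0.05. Among all genes 2739 were higher and 2716 lower in high stress. Of 8 actomyosin and thin filament partners 6 were higher and 2 lower (median log2 difference 0.04). TMOD1, which caps the slow end of actin filaments, had 0.32 (SE 0.27). MYL9, the regulatory light chain that the kinase phosphorylates, had -0.24 (SE 0.21), and the actin- and myosin-binding caldesmon gene CALD1 had -0.09 (SE 0.20). The likeness to TAGLN was 0.49 for SMTN, 0.49 for MYL6 and 0.48 for TPM1, but 0.01 for CALD1 and -0.03 for MYL9.

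Of 18 genes of dense plaques, linkers and LIM proteins, which anchor the filaments at the membrane, 12 were higher and 6 lower (median 0.02). PDLIM7, a PDZ and LIM domain protein, had 0.51 (SE 0.21, adjusted p = 0.999, and 0.733 with the block), with 0.21 and 0.80 within the low-spike and high-spike sets. The integrin ITGA8 had 0.25 (SE 0.21), and filamin A, FLNA, which cross-links actin, had 0.19 (SE 0.20). FLNA ranked 18 among all genes for likeness to TAGLN.

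Of 14 regulators around serum response factor and myocardin 3 were higher and 11 lower (median -0.08). SMAD3, a mediator of TGF-beta signals, had -0.34 (SE 0.16), the transcription factor MEF2A -0.17 (SE 0.13) and KLF4, known to hold back smooth muscle genes, -0.27 (SE 0.24). KLF4 had -0.84 in the low-spike and 0.30 in the high-spike set. The single probe set of MYOCD, the gene of myocardin, averaged 4.79 and did not pass the filter.

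Of 9 genes of receptors, calcium and cyclic nucleotide signalling 6 were higher and 3 lower (median 0.14). The endothelin receptor EDNRB had 0.42 (SE 0.21), the calcium pump ATP2A2, the target of phospholamban, 0.17 (SE 0.10) and the calcium channel ORAI1 0.20 (SE 0.12). Of 9 non-muscle relatives of these proteins 7 were higher and 2 lower (median 0.06). Calponin 2 (CNN2) had 0.54 (SE 0.44), calponin 3 (CNN3) 0.21 (SE 0.19) and beta-actin (ACTB) 0.12 (SE 0.14). CNN2 had -0.25 in the low-spike and 1.33 in the high-spike set.

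Markers of the cells that could carry these transcripts were set beside TAGLN. A list of smooth muscle markers without the genes above had 6 of 9 annotated genes past the filter, with KCNMB1, PPP1R14A and MYOCD below it. Its mean log2 signal lay between 9.73 and 10.53 in low stress and between 9.61 and 10.63 in high stress, with a difference of -0.14. The difference was -0.30 in the low-spike and 0.03 in the high-spike set, so over all animals it had the opposite sign to that of TAGLN. Its genes did not all go this way, with 2 higher and 4 lower in high stress (median -0.06). They ran from -0.52 (SE 0.61) for PDLIM3 to 0.06 (SE 0.19) for SMTN. PDLIM3 had -1.15 in the low-spike and 0.11 in the high-spike set. Across the 16 animals the list correlated with TAGLN at r = 0.204 (rho 0.165; permutation p = 0.450 and 0.543, adjusted 0.6 and 0.668 over 16 relations), at 0.162 within the low-spike and 0.171 within the high-spike set, and at 0.513 without high stress replicates 4 and 7.

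Pericyte markers, 6 of 6 annotated past the filter, lay between 8.30 and 8.74 in low stress and between 8.20 and 8.58 in high stress. Fibroblast and capsule markers, 9 of 11, lay between 8.80 and 9.82 and between 8.70 and 9.71, and endothelial markers, 7 of 9, between 9.09 and 9.46 and between 8.98 and 9.27. Their correlations with TAGLN were r = -0.039, -0.320 and 0.099 (rho -0.076, -0.371 and 0.179). The largest positive values among the lists were those of steroidogenic cortex (r = 0.446, rho 0.235), skeletal muscle (r = 0.422, rho 0.397) and chromaffin markers (r = 0.4, rho 0.432). Within the low-spike and high-spike sets r was -0.160 and 0.209 for the cortex, -0.029 and 0.098 for skeletal muscle and 0.133 and 0.335 for chromaffin markers. Of 12 annotated skeletal muscle markers only MYH7 and CKM passed the filter, and their mean lay between 7.36 and 8.06 in low stress and between 7.42 and 8.12 in high stress. None of 16 relations of TAGLN with marker lists or array measures passed a permutation test (lowest adjusted p 0.399). The log2 ratio of 3' to 5' actin signal had r = 0.448 with TAGLN over all animals, and -0.092 and -0.347 within the low-spike and high-spike sets. The part of cell composition and of RNA quality in the values of TAGLN and TPM2 was not tested. The spike-in sets were compared above, but what made them differ was not tested.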

How the data were processed

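Per the submitters' processing notes, the authors made MAS5 signals with Affymetrix Expression Console 1.1.1, and these linear intensities are what was deposited. Each column's trimmed mean, leaving out 2% of probe sets at either end, was 500, so arrays were scaled as a whole. No detection calls were used.

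Signals were taken to log2. The 124 control probe sets were set aside. The annotation gave 1 symbol for 10069 of the others, several for 198 and none for 13732. The filter kept probe sets whose mean over all arrays reached the 40th percentile (log2 6.15, a signal of 71.1). Models were fitted in R 4.3.3 with limma 3.58.1 (lmFit and eBayes, two-sided), with Benjamini-Hochberg adjustment over all probe sets tested and a threshold of 0.05. The brightest probe set stood for a gene in lists. Correlations used permutation tests written in Python (100000 permutations, or all 40320 pairings of 8), adjusted over 45 pairs or 16 relations. Ranks were taken with scipy 1.17.1. Python 3.11.15 with matplotlib 3.10.9 drew the figures. Scripts were first tested on simulated data. A further pathway list is not reported here.

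All probe sets of the contractile genes are named. So are the 3 genes of smallest p in each pathway list and the 8 genes most like TAGLN and most like TPM2. FLNA, SMTN, MYL6, TPM1, TPM4, ACTB, TAGLN2 and CYP17A1 in the likeness ranking, PDLIM3 and SMTN in the marker list, and MYOCD were named after their values were seen. These genes, the lists and the tests, including the split into spike-in sets at the largest gap in dap signal, were chosen with earlier results of these data known. Each animal is 1 array, and animals are numbered within a group by order of deposit. Alternatives were no filter, a 60th percentile filter, median centring, quantile normalization, a pseudocount of 23.5, a trended robust prior, array weights, blocks for spike-in set and first digit of the animal number, singly, together and by cell, fits within each set, averaging all probe sets of a gene, and leaving out each animal.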

Additional observations from a re-analysis of the deposited data

Results flagged for a closer look

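In groups of 8 animals the gap of the highest or lowest animal to its neighbour was set against the range of the group (Dixon's ratio, at its 95% critical value). This picked out 7 of 110 groups, where chance alone picks out about 1 in 20.

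The TPM2 probe set below the filter was at a log2 signal of 2.68 in low stress replicate 4, against 4.75 to 6.24 in the others of that group. The DES probe set below the filter was at 2.48 in low stress replicate 8, against 4.63 to 6.0. Neither was tested between groups. PPP1CB, a protein phosphatase subunit, was at 11.41 in high stress replicate 7, against 11.86 to 12.23 in the others. GMPPA, among the genes most like TAGLN, was at 8.20 in high stress replicate 1, against 7.12 to 7.57, and this was also the animal with the highest TAGLN. HINT1, among the genes most like TPM2, was at 13.01 in low stress replicate 7, against 12.45 to 12.64, and this animal was second for TPM2. The mean of myeloid markers was 9.67 in low stress replicate 5, against 8.74 to 9.16, and that of steroidogenic cortex markers was 12.71 in low stress replicate 3, the animal lowest for TAGLN, TPM2 and ACTA2, against 12.96 to 13.16.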

How the results depend on the processing

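The log2 differences of TAGLN and TPM2 kept their direction and stayed without a call in all 29 and 30 alternatives. Without single animals they ran from 0.39 to 0.61 and from 0.45 to 0.72. The blocks, being balanced over the stress groups, could change the errors of these differences but not the differences themselves. No probe set of the contractile genes passed the stress comparison under any of its 29 alternatives; over all probe sets 1 passed with the spike-in set as a block and 0 without single animals. The correlation of TAGLN with TPM2 kept its side of the threshold in all 23 alternatives (0.949 to 0.969 without single animals). The interaction of stress with spike-in set called 2 probe sets with no filter and 0 without single animals.

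Small differences changed sign. ACTA2 had -0.082 within the low-spike set, and 0.12 to 0.54 without single animals. ACTG2 had 0.050 with median centring, 0.044 within the high-spike set, 0.22 as the mean of its probe sets, and -0.077 to 0.029 without single animals. CNN1 had -0.24 and DES -0.15 within the low-spike set, and PLN 0.092 within the high-spike set. Without single animals CNN1 ran from -0.11 to 0.11, DES from -0.030 to 0.14 and PLN from -0.29 to 0.064. CNN1 turned without low stress replicate 3 or 8 or high stress replicate 8, DES without low stress replicate 3, PLN without high stress replicate 8, and ACTG2 without low stress replicate 2 or 6 or high stress replicate 1 or 8. The cause was not tested.

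The comparison of the spike-in sets called 5069 to 6198 probe sets without single animals, and 3 to 6 of the contractile genes' probe sets. With no filter the set calls of ACTA2, CNN1 and DES were lost (limma adjusted p = 0.0885, 0.0867 and 0.0644), and that of ACTA2 also after quantile normalization (adjusted p = 0.0811). The alternatives for single genes in the set comparison and the interaction, and for the count of contractile probe sets between the sets, were chosen after seeing the data. So was the block of first digit by spike-in set. The labels give no replicate numbers shared by the groups and do not say that the first digit of the animal number pairs animals. The comparison by first digit within a set was therefore the only one of this kind. Small probe-level signals limit MYLK and PLN, and 4 animals of a group in each set limit the comparisons within sets.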
